A study of Mus musculus with 12 samples.

Results

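The Vnn1-high siRNA arrays are 3 of the 6 siRNA arrays of this series, and they are set here against all 6 antimicroRNA arrays, which makes 9 of 12 arrays. They were chosen by a measured value: 1 of the Vnn1 probe sets above a log2 level of 5.5 after quantile normalization of all 12 arrays. That rule took siRNA-140 replicates 1 and 2 and siRNA-96 replicate 1, and left out siRNA-140 replicate 3 and siRNA-96 replicates 2 and 3. All arrays came from C3H10T1/2, an established mouse line of embryonic fibroblast-like cells that can turn into cartilage, bone, fat or muscle cells. The siRNA groups had been transfected with siRNA-140 or siRNA-96, small RNAs named after miR-140 and miR-96. In the antimicroRNA groups the cells had received LNA-antimicroRNA-140 or LNA-antimicroRNA-449, antisense strands with locked nucleic acid bases that bind and block a microRNA. Each of the 4 groups had 3 arrays. Every group was transfected and no untreated cells were among the samples, so a siRNA array differs from an antimicroRNA array by the kind of molecule, by the microRNA it is named after and by the experiment. These cannot be told apart. Doses and times are not given in the labels, nor is whether replicates were separate cultures, so p-values measure the spread between these arrays, which may be technical.

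A microRNA guides a silencing complex to messenger RNAs that pair with its seed, bases 2 to 8 of the mature strand, and lowers their stability and translation. miR-140 is a microRNA of cartilage that lies within an intron of Wwp2. Double-stranded RNA in the cytoplasm can also be met by sensors that switch on interferon and, through it, a large set of antiviral genes. Vanin-1, the product of Vnn1, is an enzyme anchored at the cell surface that splits pantetheine into pantothenate, the precursor of coenzyme A, and cysteamine.

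The mature microRNAs after which the molecules were named are shown so that their seeds (capitals) can be compared. They come from RefSeq (GRCm38.p6). Which strand or family member each molecule carried is not given in the labels, and miR-140-5p is named only. No pair of the 3 printed strands shares a seed.
mmu-miR-140-3p: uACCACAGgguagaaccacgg
mmu-miR-96-5p: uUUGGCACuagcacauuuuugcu
mmu-miR-449a-5p: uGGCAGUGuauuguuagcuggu
Their positions are chr8:107551288-107551308 (plus strand), chr6:30169506-30169528 (minus strand) and chr13:113037549-113037570 (plus strand). The arrays read messenger RNAs and not these strands, so their levels could not be checked.

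On the principal components of all 12 arrays, the first (42.3% of the variance) separated siRNA arrays, at 22.83 to 39.33, from antimicroRNA arrays, at -31.27 to -28.55. The second (22.4%) held the antimicroRNA arrays in the middle, at 2.26 to 3.40. The Vnn1-high arrays lay to one side of them, at -36.67 to -27.40, and the other siRNA arrays to the other side, at 25.41 to 29.25. Signal of the 18S ribosomal RNA control probe sets was a log2 level of 10.62 on siRNA-96 replicate 1, 10.05 on antimicroRNA-449 replicate 1, 8.07 on siRNA-96 replicate 3 and 5.55 to 6.80 on the other arrays. The part of this signal in the results was not tested, and the counts were repeated without those 3 arrays. Of 16 measured fibroblast and mesenchymal marker genes, 1 had a mean below 5 over the Vnn1-high and antimicroRNA arrays. Their summed level was 15.68 to 15.77 on the Vnn1-high and 15.83 to 15.89 on the antimicroRNA arrays. Most markers of other cell types had such a mean below 5: 11 of 14 for macrophages, 11 of 13 for endothelium, 9 of 13 for neural cells and 12 of 15 for skeletal muscle. Summed macrophage markers read 8.45 to 8.66 on the Vnn1-high and 8.18 to 8.37 on the antimicroRNA arrays, endothelial ones 8.09 to 8.21 and 7.98 to 8.13, neural ones 8.66 to 8.71 and 8.72 to 8.81, and skeletal muscle ones 7.79 to 8.05 and 7.93 to 8.12. The part of these differences in the results was not tested. The deposited values carry no detection calls, so they do not show whether a level near 3 lies above background.

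The choice of the siRNA arrays rested on Vnn1, and its levels are given as a description. The probe set used for the choice read 8.21 and 8.38 on siRNA-140 replicates 1 and 2 and 8.43 on siRNA-96 replicate 1, and the antimicroRNA arrays read 4.36 to 5.42 with a median of 4.93. On the other siRNA arrays it read 3.05 (siRNA-140 replicate 3), 3.05 (siRNA-96 replicate 2) and 3.19 (siRNA-96 replicate 3). The antimicroRNA arrays thus lay between the siRNA sets and overlapped neither. The lowest level that the rule took in was 8.21. Just outside it was 3.19 among siRNA arrays, and the highest antimicroRNA array, antimicroRNA-140 replicate 2, came to 5.42. The second Vnn1 probe set read 10.55, 10.61 and 10.23 on the Vnn1-high arrays, 6.84 to 7.54 (median 7.20) on the antimicroRNA arrays and 5.45 to 5.79 on the other siRNA arrays. Its mean difference from the antimicroRNA arrays was 3.26 ± 0.18 (SE; n = 3 and 6), which is 9.60-fold.

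The other markers named for these arrays set them apart less simply. Postn, the gene of periostin in the extracellular matrix, read 6.80, 6.25 and 6.46 on the Vnn1-high arrays and 6.93 to 7.15 (median 7.04) on the antimicroRNA arrays. The groups did not overlap, but the difference of -0.54 ± 0.16 was small beside the level of 10.19 to 10.34 on the other siRNA arrays. For Postn, low was thus the state of 9 of 12 arrays. Actg2, the smooth muscle gamma actin gene, read 4.15, 4.18 and 4.28 on the Vnn1-high arrays, 5.14 to 5.58 (median 5.29) on the antimicroRNA arrays and 5.70 to 5.86 on the other siRNA arrays. The antimicroRNA arrays were nearer the other siRNA arrays here, and the difference was -1.11 ± 0.08.

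**Figure D1:**
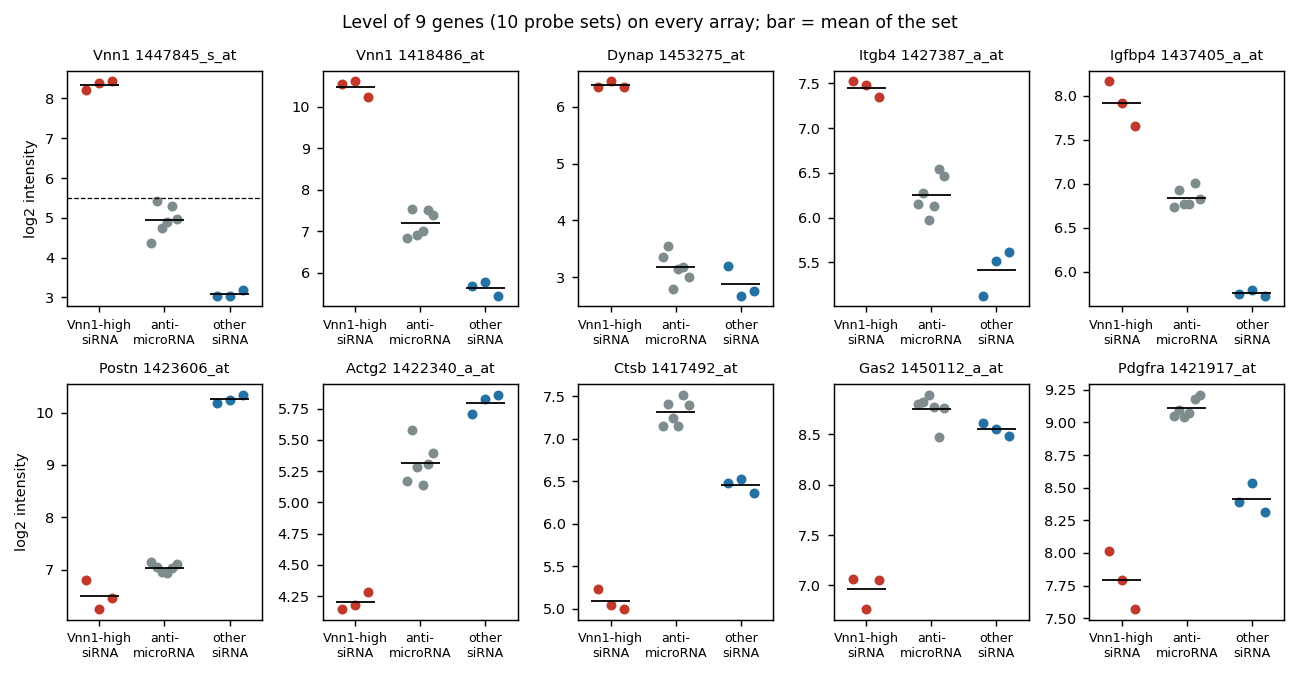
Log2 intensity of 10 probe sets (9 genes) on each array, by set: 3 Vnn1-high siRNA, 6 antimicroRNA and 3 other siRNA arrays; points are arrays, bars are means of the sets, the dashed line is the level of 5.5 that chose the Vnn1-high arrays, and each panel has its own axis. Postn is low in the 2 left sets and high in the right one, whereas Gas2 is low on the Vnn1-high arrays alone.

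Across the array, a probe set was called higher or lower where the means differed at least 2-fold and the 3 Vnn1-high and 6 antimicroRNA arrays did not overlap. By this rule 79 of 45037 probe sets (0.175%) were higher and 181 (0.402%) lower on the Vnn1-high arrays. At any size, 7159 (15.9%) lay above all 6 antimicroRNA arrays and 7022 (15.6%) below. Large differences were few: 4 of the higher and 1 of the lower probe sets passed a log2 difference of 2. Those 4 include the Vnn1 probe sets, of the gene on which the choice of arrays rested. These counts have no test, because the siRNA arrays were picked by a measured value. The split between higher and lower depended on scaling: with the deposited values as they stand, on which the median over all probe sets was -0.30 against 0.01 after quantile normalization, 13 were higher and 950 lower. Centred on array medians, the counts were 91 and 164.

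The Vnn1-high arrays were not alike in how far they departed from the antimicroRNA arrays. Counting probe sets beyond the antimicroRNA range and at least 2-fold from its mean, siRNA-140 replicate 1 had 119 above and 183 below. With siRNA-140 replicate 2 there were 162 and 262, and with siRNA-96 replicate 1 there were 197 and 312. Of these, 32 above and 83 below were shared by the 3 arrays. Among themselves they differed at least 2-fold at 50 (siRNA-140 replicates 1 and 2), 47 (siRNA-140 replicate 1 and siRNA-96 replicate 1) and 101 probe sets (siRNA-140 replicate 2 and siRNA-96 replicate 1).

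The labels alone, without Vnn1, also allow a comparison of all 6 siRNA with all 6 antimicroRNA arrays, which is the one test made here. limma called 7149 probe sets higher with siRNA (15.9% of those tested) and 7146 lower (15.9%) at a Benjamini-Hochberg adjusted p under 0.05. Without the 3 arrays of high 18S signal it called 4761 and 4965. It joins the Vnn1-high and the other siRNA arrays, and it shares all arrays with the description above, so a call in it is not separate evidence for a gene picked there. The other siRNA arrays are set against the same 6 antimicroRNA arrays throughout, and their values stand beside those of the Vnn1-high arrays as a description. By the 2-fold rule, 231 probe sets (0.513%) were higher and 185 (0.411%) lower on the other siRNA arrays.

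The called probe sets were sorted by where the other siRNA arrays lay. For 50 of the 79 higher and 112 of the 181 lower ones, all 3 lay beyond the antimicroRNA range on the same side. None did for 21 higher and 36 lower ones. Named genes were taken by size of the difference among clearly measured ones (a mean of at least 6 in the higher set), so their numbers do not follow these counts. A first group held genes for which the other siRNA arrays, too, lay beyond the antimicroRNA range on the same side: 7 genes higher, all given here, and 24 lower, of which 10 are named. Ctsb, which encodes the lysosomal protease cathepsin B, stood lowest. It read 5.23, 5.05 and 5.0 on the Vnn1-high arrays, 7.15 to 7.52 (median 7.32) on the antimicroRNA arrays and 6.37 to 6.53 on the other siRNA arrays. All siRNA arrays were thus below all antimicroRNA arrays, and the Vnn1-high ones lowest, by -2.22 ± 0.09 against -0.86 for the other siRNA arrays. Over the labels Ctsb fell by 1.54 ± 0.27 (limma adjusted p = 0.00105). Of its other probe sets, 3 gave -1.73, -1.17 and -1.07 for the Vnn1-high arrays and a dim one gave 0.10. Scpep1, another gene of a lysosomal protease family (serine carboxypeptidases), was lower by -1.43 ± 0.07 on the Vnn1-high arrays and -0.21 on the other siRNA arrays. Tpcn1, a cation channel gene of endosomes and lysosomes, differed by -1.36 ± 0.12 and -1.45.

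Pdgfra, the receptor for platelet-derived growth factor on mesenchymal cells, read 8.02, 7.79 and 7.57 on the Vnn1-high arrays, 9.05 to 9.21 (median 9.08) on the antimicroRNA arrays and 8.31 to 8.54 on the other siRNA arrays. It fell over the labels by 1.01 ± 0.14 (limma adjusted p = 0.000270), although its remaining probe sets gave -0.31 and 0.01 on the Vnn1-high arrays. Pdgfrb, the second receptor of that family, is not among the named lower genes of this group and did not pass the 2-fold call. It differed by -0.67 ± 0.06 on the Vnn1-high and -0.44 on the other siRNA arrays. Grem1, which encodes the BMP antagonist gremlin, read 4.78, 5.34 and 5.44 on the Vnn1-high arrays against 6.38 to 6.56 (median 6.44) on the antimicroRNA arrays. The other siRNA arrays read 5.04 to 5.17, in the same range, and the label difference was -1.31 ± 0.10 (limma adjusted p = 4.58e-06). Gng12, a G protein gamma subunit gene, was an example of the opposite order: -1.26 ± 0.05 on the Vnn1-high and -1.93 on the other siRNA arrays. The glutathione transferase gene Gsta4 differed by -1.26 ± 0.06, the sarcospan gene Sspn by -1.44 ± 0.12, the kinase-like PX domain gene Pxk by -1.29 ± 0.11 and the ubiquitin ligase gene G2e3 by -1.23 ± 0.23 on the Vnn1-high arrays.

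On the higher side, Sema7a, a membrane-anchored semaphorin gene, read 7.06, 7.35 and 7.31 on the Vnn1-high arrays, 5.51 to 5.82 (median 5.61) on the antimicroRNA arrays and 6.03 to 6.21 on the other siRNA arrays. Its difference was 1.58 ± 0.10 on the Vnn1-high arrays, and 1.03 ± 0.23 over the labels (limma adjusted p = 0.00431). Elovl7, an enzyme gene of long-chain fatty acid elongation, differed by 1.57 ± 0.13, with the other siRNA arrays at 1.0 and a label difference of 1.29 ± 0.12 (limma adjusted p = 1.75e-05). Its other probe sets gave 0.13 to 1.38. Slc25a32, a mitochondrial folate carrier gene, differed by 1.14 ± 0.12, with 1.13 on the other siRNA arrays, whereas its brighter probe set gave 0.63 and a dim one -0.05. The collagen prolyl hydroxylase gene P3h2 differed by 1.0 ± 0.04, the transcript Rab26os by 1.08 ± 0.15 and the reticulon gene Rtn4 by 1.09 ± 0.09. The Rtn4 value was the largest of 5 probe sets, of which the others gave 0.71, 0.13, 0.05 and -0.20. Its label call (limma adjusted p = 0.0141) became 0.105 without the 3 arrays of high 18S signal and 0.111 on the deposited scale, and that of Scpep1 (0.0193) became 0.129 without those arrays. Xaf1, the last of the 7, is an interferon-induced gene and is described with that list.

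**Figure D2:**
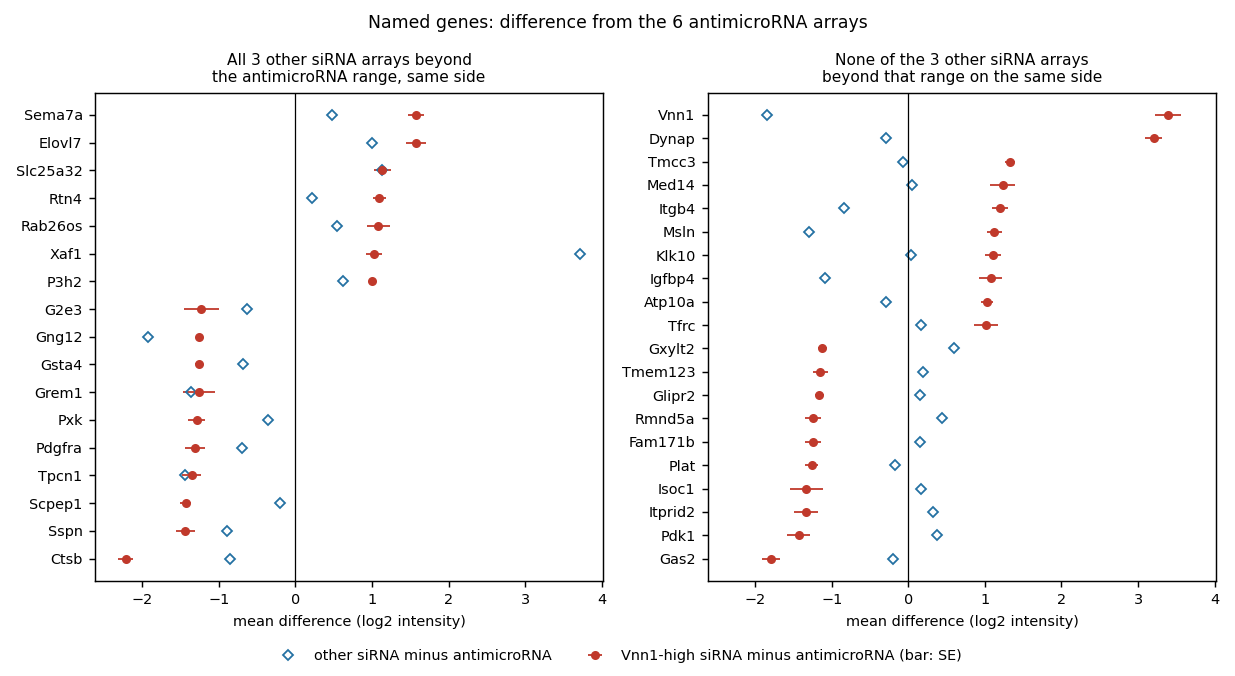
Mean log2 differences from the 6 antimicroRNA arrays for the 37 named genes: filled points are the 3 Vnn1-high siRNA arrays with SE bars, open diamonds the 3 other siRNA arrays. In the left panel both lie on the same side of 0, with Xaf1 at 1.02 against 3.71; in the right panel the open diamonds lie near 0 or on the opposite side, with Vnn1 at 3.40 against -1.85.

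A second group held genes for which none of the other siRNA arrays lay beyond the antimicroRNA range on the same side: 10 higher genes and 18 lower ones, of which 10 are named. Besides Vnn1, the difference was largest for Dynap, which encodes a membrane protein that interacts with dynactin. Dynap read 6.34, 6.45 and 6.34 on the Vnn1-high arrays, 2.79 to 3.55 (median 3.17) on the antimicroRNA arrays and 2.68 to 3.2 on the other siRNA arrays. It was thus high on the Vnn1-high arrays and low on the remaining 9, with a difference of 3.2 ± 0.11. The antimicroRNA level is one that these values do not show to lie above background, so no fold is given. Tmcc3, a gene of a coiled-coil membrane protein of the endoplasmic reticulum, differed by 1.32 ± 0.06, and its 5 probe sets gave 1.09 to 1.32.

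Itgb4, the integrin beta subunit of hemidesmosomes, read 7.52, 7.48 and 7.35 on the Vnn1-high arrays, 5.97 to 6.55 (median 6.22) on the antimicroRNA arrays and 5.13 to 5.61 on the other siRNA arrays. Msln, the mesothelin gene, read 6.48, 6.56 and 6.46 against 4.96 to 5.61 (median 5.43), with 3.86 to 4.20 on the other siRNA arrays. Igfbp4, a binding protein gene for insulin-like growth factors, read 8.17, 7.92 and 7.66 against 6.73 to 7.01 (median 6.80), with 5.73 to 5.79 on the other siRNA arrays. In each of these 3 genes the antimicroRNA arrays lay between the siRNA sets, so the label test, which averages the siRNA sets, gave adjusted p-values of 0.767, 0.900 and 0.992 by limma. The other Igfbp4 probe sets gave 0.05 to 0.98. The kallikrein gene Klk10 differed by 1.10 ± 0.11, the Mediator subunit gene Med14 by 1.23 ± 0.17, the phospholipid flippase gene Atp10a by 1.03 ± 0.08 and the transferrin receptor gene Tfrc by 1.02 ± 0.16. For Med14 and Atp10a the 2-fold call rests on 1 probe set each, and the others gave -0.23 to 0.54 and -0.20 to 0.78.

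Gas2, a growth arrest-specific gene whose product binds the cytoskeleton, led the lower genes of this group. It read 7.06, 6.77 and 7.06 on the Vnn1-high arrays, 8.47 to 8.89 (median 8.79) on the antimicroRNA arrays and 8.48 to 8.61 on the other siRNA arrays. Only the Vnn1-high arrays were low, by -1.79 ± 0.11, while a dim second probe set gave -0.05. Pdk1, the pyruvate dehydrogenase kinase gene, differed by -1.43 ± 0.15, with 0.38 on the other siRNA arrays, and its other probe sets gave -1.87 to -0.27. Itprid2 differed by -1.34 ± 0.16, Isoc1 by -1.33 ± 0.21, Fam171b by -1.25 ± 0.10, Rmnd5a by -1.24 ± 0.10, Glipr2 by -1.16 ± 0.06 and Tmem123 by -1.15 ± 0.09. Plat, which encodes tissue plasminogen activator, differed by -1.26 ± 0.08. Gxylt2, a xylosyltransferase gene of Notch modification, read 6.29, 6.33 and 6.15 on the Vnn1-high arrays, 7.26 to 7.43 (median 7.40) on the antimicroRNA arrays and 7.96 to 7.99 on the other siRNA arrays. Dim probe sets of Rmnd5a and Plat went the other way, at 0.32 and 0.18. Of the 20 genes named in this group, Tfrc, Gas2 and Plat passed the label test, with limma adjusted p-values of 0.0224, 0.0232 and 0.0217. These became 0.0853, 0.155 and 0.106 without the 3 arrays of high 18S signal. Tfrc also lost its call on the deposited scale (limma adjusted p = 0.199) and without antimicroRNA-140 replicate 1, antimicroRNA-449 replicate 2 or siRNA-140 replicate 2 (highest limma adjusted p = 0.0531). Gas2 did so without siRNA-140 replicate 1 or 2 (highest limma adjusted p = 0.0577), and Plat without antimicroRNA-140 replicate 2 or siRNA-140 replicate 1 or 2 (highest limma adjusted p = 0.0546).

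The antimicroRNA arrays can also be placed on the axis between the siRNA sets. At least 2-fold apart and without overlap were 191 probe sets higher and 334 lower in the Vnn1-high set than in the other siRNA set. Of the 191, all 6 antimicroRNA arrays lay between the sets in 80, beyond the Vnn1-high set in 8 and beyond the other set in 1, and overlapped a set in 102. Their mean was nearer the Vnn1-high set in 149 (78.0%), with a median position of 0.75 on a scale from 0 (other siRNA) to 1 (Vnn1-high). Of the 334, the antimicroRNA mean was nearer the Vnn1-high set in 191 (57.2%), with a median position of 0.58, and all 6 arrays lay between the sets in 147, beyond the Vnn1-high set in 46 and beyond the other set in 4. Choosing probe sets for a wide gap bears on these counts, and they have no test.

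**Figure D3:**
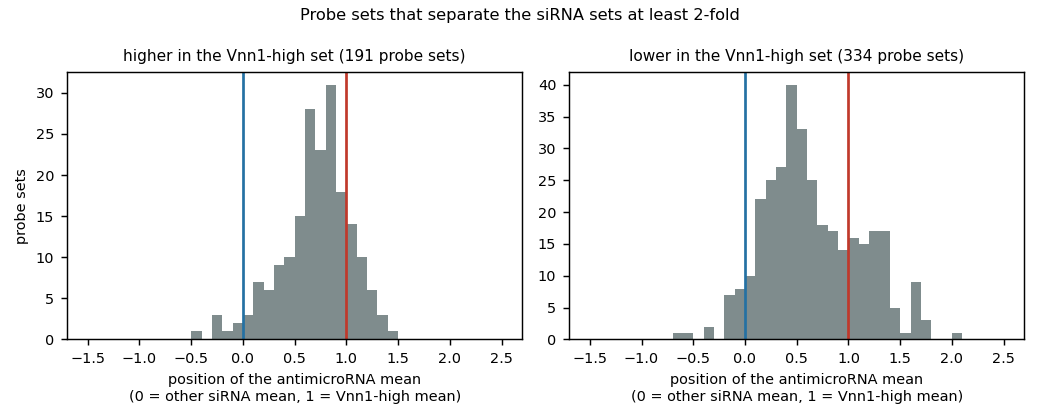
Position of the mean of the 6 antimicroRNA arrays for probe sets that differ at least 2-fold, without overlap, between the Vnn1-high and the other siRNA arrays (0, blue line: other siRNA mean; 1, red line: Vnn1-high mean); bars count probe sets. The median is 0.75 for the 191 higher in the Vnn1-high set and 0.58 for the 334 lower in it.

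The 31 gene lists were read with 1 probe set per gene, the brightest. On this basis 37 of 18193 genes (0.203%) were higher and 79 (0.434%) lower on the Vnn1-high arrays, with a median difference of 0.01, and the label test called 2964 (16.3%) higher and 2801 (15.4%) lower. At the shares that passed the 2-fold call, a short list mostly holds no called gene, so 0 called is not read as a result. Above 0 lay 9451 of the 18193 genes. Of 16 genes of pantetheinase and coenzyme A turnover, 1 was higher, Vnn1 itself, and the median was 0.05. Vnn3, a second vanin gene, read 4.43 ± 0.11 (SD, n = 3) against 3.94 ± 0.16 (n = 6), Ppcs of coenzyme A synthesis differed by 0.37 ± 0.10 and the thioesterase gene Acot7 by 0.31 ± 0.10.

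Of 40 epithelial, membrane raft and keratin genes, Dynap, Itgb4 and Msln were higher and Cdh1 (-1.13 ± 0.12, at levels of 2.88 against 4.0) was lower, with a median of 0.07. Over all genes 0.203% were called higher and 0.434% lower. The list was chosen with earlier results of these data known, so its called genes are not read as a result about epithelial genes. The label test called 7 higher (17.5%) and 9 lower (22.5%), beside 16.3% and 15.4% of all genes. With 1 array left out it called 3 to 7 higher and 5 to 12 lower. It called 3 and 7 without antimicroRNA-140 replicate 2 and 4 and 9 without siRNA-140 replicate 2. Without antimicroRNA-449 replicate 1 it called 4 and 7, and without antimicroRNA-449 replicate 2 it called 5 and 5. The genes of this list that follow were chosen after their values were seen. Slurp1, a secreted Ly6 family gene, read 7.68 on the Vnn1-high, 7.72 on the antimicroRNA and 5.17 on the other siRNA arrays on average. The water channel gene Aqp5 read 9.78, 9.89 and 8.20 in the same order, and the vesicle membrane gene Vat1 10.09, 10.44 and 8.43. In these 3 genes the Vnn1-high arrays differed from the antimicroRNA arrays by -0.05 ± 0.11, -0.11 ± 0.10 and -0.35 ± 0.25, while the other siRNA arrays differed by -2.56, -1.69 and -2.01. The raft gene Mal read 7.60, 6.63 and 4.57, with the antimicroRNA arrays between the siRNA sets. The simple keratin genes Krt7, Krt18 and Krt19 had mean levels of 2.34 to 3.34 on the Vnn1-high and antimicroRNA arrays, and the epithelial adhesion gene Epcam read 6.03 and 6.43.

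Of 25 smooth muscle and contractile genes, 22 were below 0 and 1, Actg2, passed the call, with a median of -0.29 against 0.13 for the other siRNA arrays. Over all genes 0.434% were called lower. Cald1, which encodes the actin-binding protein caldesmon, differed by -0.79 ± 0.03, the Z-disc gene Ldb3 by -0.94 ± 0.10, the myosin light chain gene Myl9 by -0.80 ± 0.14 and the alpha actin gene Acta2, chosen after its values were seen, by -0.45 ± 0.04. All 4 were higher on the other siRNA than on the antimicroRNA arrays, by 0.22 to 1.14, and none passed the label test at these probe sets. The label test called Myocd higher and Synpo2 and Pdlim7 lower (1 to 3 higher and 1 to 4 lower with 1 array left out). These calls are 4.0% and 8.0% of the list, beside 16.3% and 15.4% of all genes.

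Interferon-induced genes lay above the antimicroRNA arrays on both siRNA sets, and far less so on the Vnn1-high arrays. Of 36 measured genes, 30 were above 0 on the Vnn1-high arrays with a median of 0.50, against 2.16 on the other siRNA arrays. The call was passed by 4 as higher and 0 as lower, beside 0.203% and 0.434% of all genes. Of the 36, 19 had a mean below 5 on the Vnn1-high arrays, as had 8417 of all 18193 genes. The list median per array was 4.57, 4.71 and 4.79 on the Vnn1-high arrays, 4.04 to 4.32 on the antimicroRNA arrays and 6.33 to 7.44 on the other siRNA arrays. With the deposited values as they stand the median difference was 0.15, beside -0.30 over all genes. Over the labels 28 of the 36 (77.8%) rose and 2 (5.6%) fell by limma, beside 16.3% and 15.4% of all genes. The 2 were Oasl1 and Cmpk2, each read at its brightest probe set only. The Vnn1-high differences of the Cmpk2 probe sets lay on both sides of 0. Leaving out 1 array at a time gave 24 to 32 rising and 2 falling.

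Ifit1, which encodes an antiviral protein that binds foreign RNA ends, read 5.30, 5.69 and 5.42 on the Vnn1-high arrays, 2.84 to 4.80 (median 3.06) on the antimicroRNA arrays and 8.07 to 9.89 on the other siRNA arrays. The groups did not overlap, and the highest antimicroRNA array was antimicroRNA-140 replicate 2. The difference was 2.16 ± 0.32 and 2.45 without that array. Irf7, the transcription factor gene that amplifies interferon production, read 4.84, 4.90 and 5.47 against 3.46 to 3.80 (median 3.55), and 6.76 to 7.82 on the other siRNA arrays, a difference of 1.48 ± 0.21 for the Vnn1-high arrays. Xaf1, a proapoptotic factor gene, read 6.56, 6.78 and 6.65 against 5.41 to 6.01 (median 5.58), and Irgm2, an immunity-related GTPase gene, differed by 1.01 ± 0.23. Usp18, which encodes the protease that removes ISG15, read 4.03, 4.79 and 4.85 against 2.93 to 4.30 (median 3.23). It overlapped through antimicroRNA-140 replicate 2; without that array the highest antimicroRNA level was 3.58 and the difference 1.34 in place of 1.16, which would pass the call. Over the labels all 5 rose by limma, among them Ifit1 by 3.94 ± 0.69 (limma adjusted p = 0.00101) and Irf7 by 2.62 ± 0.39 (limma adjusted p = 0.000332).

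**Figure D4:**
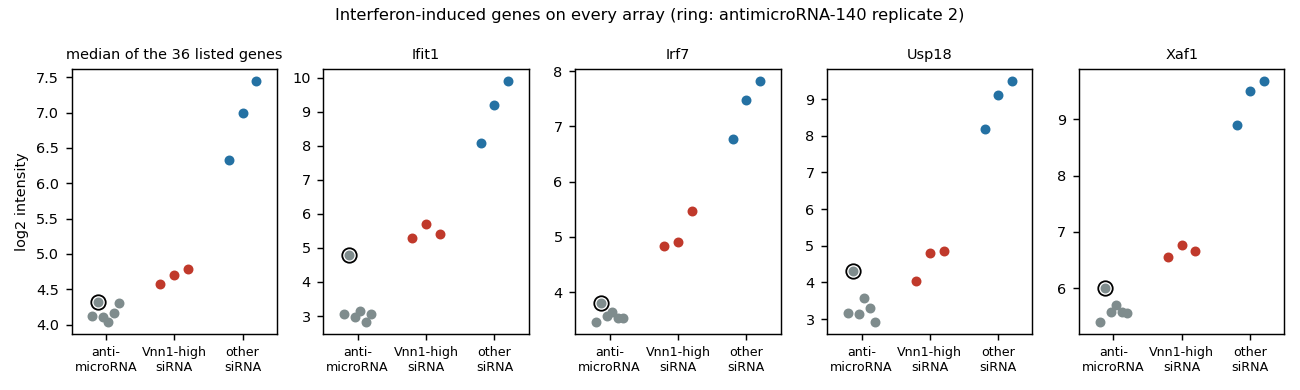
Log2 intensity per array of the median over 36 interferon-induced genes and of Ifit1, Irf7, Usp18 and Xaf1 on the 6 antimicroRNA (grey), 3 Vnn1-high siRNA (red) and 3 other siRNA arrays (blue); the ring marks antimicroRNA-140 replicate 2, and each panel has its own axis. The list median is 4.04 to 4.32, 4.57 to 4.79 and 6.33 to 7.44 in the 3 sets.

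Promoter windows (300 bases that span the gene start, RefSeq GRCm38.p6) were searched on both strands for GAAANNGAAA, a core of the element that interferon-activated factors bind. It was found in 16 of the 27 listed interferon-induced genes that had a window (59.3%), against 1079 of 27025 genes (3.99%). The windows of Ifit1 (2 matches) and Irgm2 (1 match) are shown, since both genes passed the call; capitals mark the matches, in either orientation. The windows of Irf7 and Xaf1 do not hold these letters. A match is a description of the sequence.
Ifit1 (chr19:34640639-34640938, plus strand): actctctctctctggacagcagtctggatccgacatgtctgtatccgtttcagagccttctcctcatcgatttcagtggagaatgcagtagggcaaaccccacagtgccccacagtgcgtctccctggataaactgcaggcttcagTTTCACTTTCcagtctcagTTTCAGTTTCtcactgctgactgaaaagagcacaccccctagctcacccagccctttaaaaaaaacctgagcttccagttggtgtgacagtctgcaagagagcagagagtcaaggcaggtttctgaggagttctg
Irgm2 (chr11:58214727-58215026, plus strand): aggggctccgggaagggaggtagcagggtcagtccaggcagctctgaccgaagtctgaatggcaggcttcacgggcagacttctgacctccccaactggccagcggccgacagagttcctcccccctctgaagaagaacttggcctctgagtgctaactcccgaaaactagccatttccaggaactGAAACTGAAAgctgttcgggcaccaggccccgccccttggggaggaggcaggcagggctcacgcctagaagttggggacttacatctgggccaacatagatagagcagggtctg

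Genes of mitosis were the most uniform list by sign: 29 of 29 were below 0 on the Vnn1-high arrays, with a median of -0.29, against -0.13 on the other siRNA arrays, and 0 passed the 2-fold call in either direction. Melk, a mitotic kinase gene, differed by -0.59 ± 0.06, the cyclin gene Ccnb2 by -0.43 ± 0.04, the kinetochore gene Ndc80 by -0.42 ± 0.11 and the kinesin gene Kif20a by -0.41 ± 0.11. Over the labels 13 of 29 (44.8%) fell by limma, beside 15.4% of all genes. The count was 8 without antimicroRNA-140 replicate 1 or antimicroRNA-449 replicate 1, 4 without the 3 arrays of high 18S signal, 7 with arrays centred on their medians and 29 on the deposited scale. Of 34 DNA replication genes, 29 were below 0 with a median of -0.12, 0 passed the 2-fold call in either direction, and over the labels 12 fell by limma (6 without the 3 arrays, 8 centred, 34 on the deposited scale). Tk1, the thymidine kinase gene, differed by -0.45 ± 0.10 and the helicase partner gene Gins1 by -0.40 ± 0.08. On the deposited scale the medians were -0.61 for mitosis and -0.43 for replication, beside -0.30 over all genes.

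Reported targets of the microRNAs held single called genes. Over all genes 0.203% were called higher and 0.434% lower, and lists this short cannot show whether calls are rare or common among targets. Of 27 listed miR-140 targets, 1 was lower, Pdgfra, and 0 were higher, with a median of -0.15 against 0.05 on the other siRNA arrays. Over the labels 2 rose (7.4%) and 5 fell (18.5%) by limma, beside 16.3% and 15.4% of all genes. With 1 array left out, 1 to 2 rose and 4 to 6 fell. Cxcl12, a chemokine gene on this list, read 9.28, 9.17 and 9.19 on the Vnn1-high arrays, 9.67 to 9.91 (median 9.78) on the antimicroRNA arrays and 10.48 to 10.59 on the other siRNA arrays. The antimicroRNA arrays lay between the siRNA sets, and the second bright probe set gave -0.95 ± 0.08 beside -0.57 ± 0.05. Hdac4, a histone deacetylase gene of cartilage growth, differed by -0.44 ± 0.06 at its brightest probe set, -0.23 and -0.27 at the others. The 6 probe sets of Wwp2, the host gene of miR-140, gave -0.59 to 0.04. Of 21 miR-96 targets, 1 was higher: Mitf, the transcription factor of pigment cells, read 5.80, 5.63 and 5.56 on the Vnn1-high arrays against 4.43 to 4.77 (median 4.67) on the antimicroRNA and 3.61 to 4.24 on the other siRNA arrays. Of 25 miR-34 and miR-449 targets, 1 was lower, again Pdgfra, and the median was -0.18. Over the labels 2 of these rose (8.0%) and 7 fell (28.0%) by limma, beside 16.3% and 15.4% of all genes. The lists were written from general knowledge, and both siRNA names stand among the Vnn1-high arrays.

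In signalling and matrix lists, single genes passed the call, which 0.203% of all genes passed as higher and 0.434% as lower. A list without a called gene is not read as a result at these shares. Of 44 TGF-beta and BMP genes, Grem1 was lower, and the ligand gene Tgfb2 read 5.67 ± 0.32 (SD, n = 3) against 6.43 ± 0.13 (n = 6), with 7.77 ± 0.14 (n = 3) on the other siRNA arrays. Of 46 Wnt genes, the receptor gene Ror1 was lower (-1.44 ± 0.12), and of 24 integrin and laminin genes Itgb4 was higher and Itgb8 lower (-1.03 ± 0.19). In the list of 28 unfolded protein response genes, the chaperone gene Dnajb9 was lower (-1.0 ± 0.09), and in that of 20 chondrogenic genes the dim parathyroid hormone receptor gene Pth1r was (-1.12 ± 0.08). Of 29 collagen genes, 0 passed the call in either direction. Their median was -0.10, which became 0.01 when arrays were centred on their medians. Col3a1, a fibrillar collagen gene, differed by -0.77 ± 0.10 and Col11a1 by 0.60 ± 0.08. None of 25 matricellular genes passed the call, with a median of 0.01 against 0.35 on the other siRNA arrays. Of 29 cytokine and NF-kB genes none passed either. Ptgs2, which encodes cyclooxygenase-2, read 11.43, 11.19 and 11.42 on the Vnn1-high arrays, 10.49 to 10.66 (median 10.57) on the antimicroRNA arrays and 10.53 to 10.60 on the other siRNA arrays. It was thus high on the Vnn1-high arrays, and the remaining 9 arrays overlapped. In the lists of osteogenic, adipogenic, cholesterol and fatty acid synthesis, immediate early, p53 target, metalloprotease, small leucine-rich proteoglycan and microRNA processing genes, none passed the call.

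**Figure D5:**
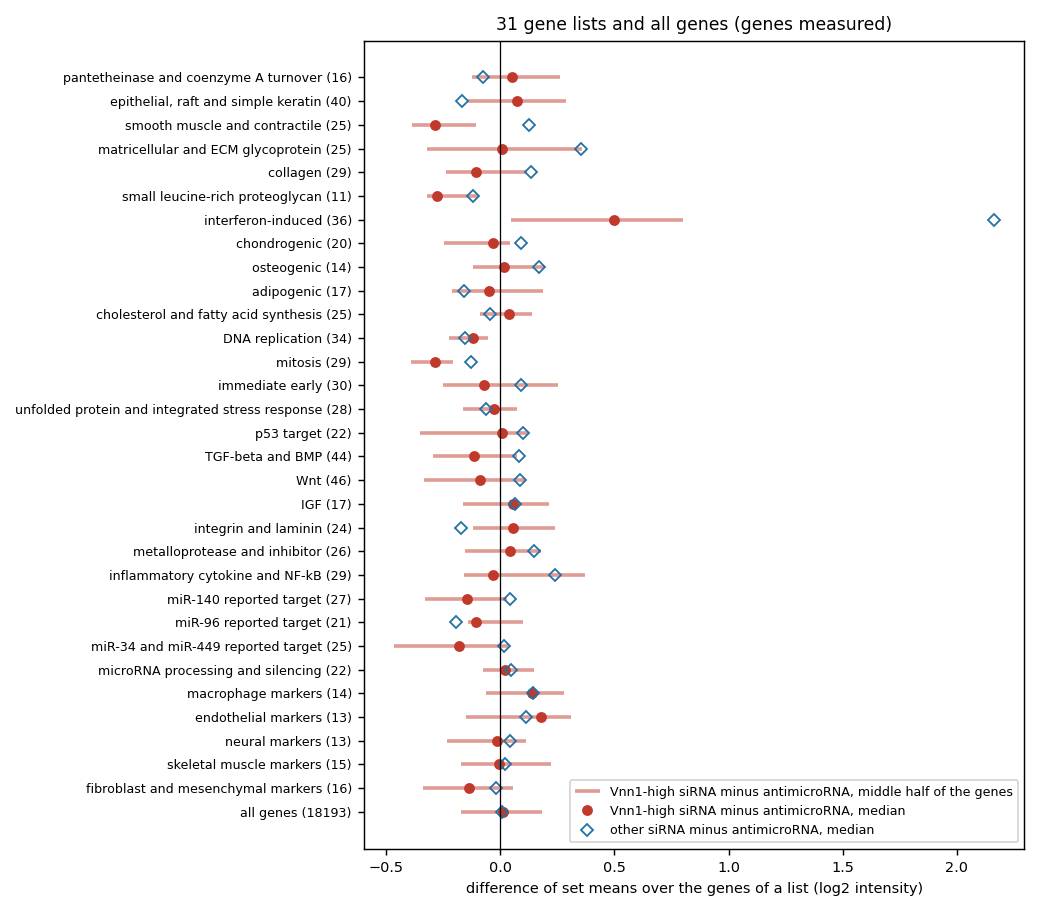
Median log2 difference from the 6 antimicroRNA arrays over the genes of 31 lists and over all genes (number measured in brackets): filled points are the Vnn1-high siRNA arrays with a bar over the interquartile range of the genes, open diamonds the other siRNA arrays. The interferon list stands at 0.50 and 2.16, the smooth muscle list at -0.29 and 0.13, and all genes at 0.01 and 0.01.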

How the data were processed

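RNA was extracted with RNeasy and hybridised as biotin-labelled target to Affymetrix arrays, per the labels' protocols. Values were deposited on a log2 scale, 1 intensity per probe set. The submitters' processing notes name RMA; its version, the order of arrays in it and a genome build are not given in the sources used here. Array medians in the deposited values were 3.95 to 4.02 for siRNA and 4.32 to 4.38 for antimicroRNA arrays. All 12 arrays were therefore quantile normalized once more, which removes any difference in overall signal between the experiments. Of 45101 probe sets, 64 array controls were left out and 45037 kept, at every level. By GEO's platform annotation 34945 probe sets had 1 gene symbol, 932 several and 9160 none. Of those with 1, 34741 matched the RefSeq table (GRCm38.p6), which changed 0.

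The Vnn1-high arrays against the antimicroRNA arrays are described by means, SDs, SEs of the difference and overlap. The label contrast was fitted with limma 3.58.1 (R 4.3.3) as 4 group means over 12 arrays, with moderated variances and Benjamini-Hochberg adjustment over 45037 probe sets, and was checked on simulated data. Named genes had 1 symbol, no overlap and a mean of at least 6 in the higher set: the 10 largest differences each way, with all or with none of the other siRNA arrays beyond the antimicroRNA range. Up to 4 members of each of 31 lists, Vnn1, Postn, Actg2, Cxcl12, Wwp2 and Hdac4 were added; predicted genes were passed over. Each stands at its probe set with the largest difference, and in lists at its brightest. The lists hold 793 genes, of which 753 were measured. Members and lists were chosen with earlier results of these data known. Alternatives were the scaling, the filter, the fold, the variance model, a replicate block and each array left out.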

Additional observations from a re-analysis of the deposited data

Results flagged for a closer look

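Among the 6 antimicroRNA arrays, 5 of 55 named probe sets examined had 1 array far from the others by Dixon's criterion, and chance marks about 1 in 20 groups. Gas2 was low on antimicroRNA-449 replicate 2, at 8.47, and so was Tmem123 on the same array, at 9.63. Gxylt2 was low on antimicroRNA-449 replicate 3, at 7.26. Ifit1 was high on antimicroRNA-140 replicate 2, at 4.80, and 1 of the Wwp2 probe sets was low on antimicroRNA-449 replicate 1, at 5.93. The 18S ribosomal RNA control signal stood out on antimicroRNA-449 replicate 1, at 10.05.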

How the results depend on the processing

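The counts moved with scaling and, in the description, with the fold required. Without further quantile normalization the label test called 1021 probe sets higher and 31006 lower, and the description 13 and 950; centred on array medians they were 8855 and 5931, and 91 and 164. Fewer features tested gave fewer calls: at or above the median level the label test called 3145 and 3094, and the description 52 and 129; with 1 probe set per gene these were 3058 and 2886, and 37 and 79. With a fold of at least 2 added, the label test called 117 and 82. At 1.5-fold the description counted 1149 and 1459, and at 4-fold 4 and 1, with the Vnn1 probe sets among those 4. Leaving out 1 array at a time gave 5939 to 7279 higher and 5898 to 7424 lower by label, and 77 to 96 and 161 to 216 in the description. Without the 3 arrays of high 18S signal, an alternative chosen after seeing the data, the label test called 4761 and 4965 (fewer samples) and the description 95 and 171.

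The replicate numbers were checked for pairing: 4 of 18 same-numbered pairs correlated over 0.1 (range -0.27 to 0.44), and 5 of 12 arrays correlated best with their own number. The siRNA-140 and siRNA-96 arrays correlated at 0.40 for replicate 1 and 0.44 for replicate 3, where both lie in the same Vnn1 set. For replicate 2, where only siRNA-140 is Vnn1-high, it was -0.27. The check therefore cannot show pairing of siRNA arrays. Pairs with an antimicroRNA array ranged from -0.055 to 0.107. With a replicate block the label test called 7194 and 7165, against 7149 and 7146.

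Each of the 37 genes named by the size of their difference stands at its largest value, and most of their other probe sets differed from it. Of those other probe sets, 8 turned sign, 46 moved by more than the spread between arrays and 6 stayed the same. The sign turned for Slc25a32 (-0.047), Rtn4 (-0.20), Ctsb (0.10), Pdgfra (0.013), Med14 (-0.23), Atp10a (-0.20), Plat (0.18) and Rmnd5a (0.32). The cause was not tested. Other probe sets were not run as an alternative for the list members; among those in the text, probe sets of Mmp9, Wwp2, Dcn, Ldb3, Fabp4, Acta2, Cmpk2, Pdlim7 and Synpo2 also lay on both sides of 0. On the deposited scale 144 of 158 named probe sets moved by more than the spread between arrays, and 2 did when centred on array medians. Of 92 named probe sets called by label, 4 changed sign on the deposited scale, where Rtn4 (limma adjusted p = 0.111) and Tfrc (0.199) were not called, and 23 were not called without the 3 arrays of high 18S signal. Array number limits precision, and low levels have no detection calls.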

Other observations

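In the adipogenic list, Cebpa, a transcription factor gene of fat cells, differed by -0.69 ± 0.05 on the Vnn1-high arrays and -0.36 on the other siRNA arrays, and the fatty acid binding protein gene Fabp4 by -0.70 ± 0.08 and -0.51. Of the 17 genes, 0 passed the 2-fold call, beside 0.203% higher and 0.434% lower over all genes. By label 1 rose (5.9%) and 5 fell (29.4%) by limma, beside 16.3% and 15.4% of all genes. With 1 array left out, 1 to 2 rose and 3 to 5 fell. In the list of metalloproteases, Adam8 differed by 0.82 ± 0.08 on the Vnn1-high arrays and by -0.47 on the other siRNA arrays, and Adam9 by -0.72 ± 0.08 and 0.05. Mmp9 gave 0.90 ± 0.04 at 1 dim probe set and -0.61 at the second.

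Among 22 listed p53 targets, 0 passed the 2-fold call, beside 0.203% higher and 0.434% lower over all genes. Trp53inp1 read 9.0 ± 0.07 (SD, n = 3) on the Vnn1-high arrays, 9.79 ± 0.03 (n = 6) on the antimicroRNA arrays and 10.40 ± 0.08 (n = 3) on the other siRNA arrays. In the 11 small leucine-rich proteoglycan genes the median was -0.28, with biglycan (Bgn) lower by -0.31 ± 0.03 and decorin (Dcn) by -0.43 ± 0.12 on the Vnn1-high arrays.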
